A study of Mus musculus with 10 samples.

Results

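Trp53 and Mdm2 are 2 genes whose copy number was followed here in leukemias of mice that carry BCR-ABL1, an oncogenic fusion kinase. Trp53 encodes the tumour suppressor p53, a transcription factor that stress and DNA damage switch on and that turns on genes of cell cycle arrest and cell death. Mdm2 encodes the E3 ubiquitin ligase that binds p53 and marks it for degradation, and it is itself a target gene of p53, so the pair forms a feedback loop. In many cancers the pathway is known to be disabled by loss of the p53 gene or by extra copies of its ligase gene.

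The genes were found on the array by position. Probes were taken from chr11:69360000-69440000 for Trp53 and from chr10:117090000-117190000 for Mdm2 (mm9), 80 kb and 100 kb long. These windows held 220 and 256 of the 402346 placed probes. The gene body of Trp53, taken as chr11:69394000-69405000, held 37 probes, with 91 in the left flank (lower coordinates) and 92 in the right flank. That of Mdm2, taken as chr10:117126000-117149000, held 62, with 97 in each flank. The 2 loci were chosen by log2 ratios of these same 10 arrays: a gain called over the body of Mdm2 in 2 Ikzf1+/+ tumours, and a short run of probes beginning inside Trp53 that was lower in Ikzf1+/- tumours. All values of the loci below are therefore descriptions with no test.

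Each array held, in the Cy5 channel, DNA from leukemic cells of bone marrow that were positive for GFP and stage-matched non-leukemic bone marrow DNA in the Cy3 channel, and the series text calls the normal DNA that of B220+ B cells. Of the tumours, 5 were Ikzf1+/+ and 5 were Ikzf1+/-, Ikzf1 being the gene of Ikaros, a transcription factor of lymphoid cells. All were described as BCR-ABL1 leukemias, and the labels gave no age, no other allele and no statement that tumours of a genotype came from separate animals. Tumour DNA carried the same dye throughout, and a bias of that dye cannot be told apart from a tumour change. The position of Ikzf1, which like Trp53 lies on chromosome 11, was not determined among these probes, so the genotype labels were not checked by its copy number.

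A log2 ratio is the log2 of tumour (Cy5) over reference (Cy3) signal, centred on each array's autosomal median. At 0 the tumour has the average amount of DNA, and 3 copies in every tumour cell against 2 would give +0.58. A tumour in which some cells carry a change cannot be told apart from one in which all cells carry a smaller change. The median background-subtracted Cy5 signal lay between 88.4 and 159 on Ikzf1+/+ arrays and between 199 and 225 on Ikzf1+/- arrays. That of Cy3 ranged from 146 to 179 over all arrays. All 37 body probes of Trp53 and 60 of the 62 of Mdm2 gave a signal well above background without saturation in either channel on each of the 10 arrays.

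The region just before each gene's start is shown for its base content, beside the probe spacing inside the genes. The sequences are from RefSeq (GRCm38.p6), 5′ to 3′ on the gene's own strand, with each CG dinucleotide in capitals; both genes were matched. The Trp53 stretch is limited to the bases between the high-coordinate boundary of the neighbouring gene Wrap53 and the start of Trp53, chr11:69580251-69580347 on the plus strand. The Mdm2 stretch is chr10:117710759-117711008 on the minus strand, 250 bases.
Trp53: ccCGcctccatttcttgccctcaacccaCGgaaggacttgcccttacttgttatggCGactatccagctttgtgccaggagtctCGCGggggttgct
Mdm2: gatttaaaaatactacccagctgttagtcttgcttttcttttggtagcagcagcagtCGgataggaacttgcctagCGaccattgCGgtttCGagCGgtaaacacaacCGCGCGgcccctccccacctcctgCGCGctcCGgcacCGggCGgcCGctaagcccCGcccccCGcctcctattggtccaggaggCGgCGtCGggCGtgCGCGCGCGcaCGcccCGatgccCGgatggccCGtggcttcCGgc
The Mdm2 stretch held 29 CG dinucleotides and 65.6% G and C, against medians of 6 and 52.4% over the 250 bases before the start in 32851 RefSeq entries, of which 6.78% held as many CG dinucleotides. For Trp53, 5 CG dinucleotides lay in the 97 bases shown. On the array, the largest distance without a probe in the Mdm2 body was 2099 bases, between the probe ending at 117146837 and the body's last probe at 117148937. This gap lies at the high-coordinate end of the body, where a gene on the minus strand begins. The largest in the Trp53 body was 684 bases, against a median spacing of 282 in Trp53 and 331 in Mdm2. The array's coordinates are mm9, so whether the Mdm2 stretch falls in the gap was not determined.

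The Mdm2 body averaged above 0 in Ikzf1+/+ tumours 1 and 4, in each of 3 parts along its length, and lay near 0 in every Ikzf1+/- tumour. Its mean log2 ratio was 0.35, 0.098, -0.0041, 0.297 and 0.083 in Ikzf1+/+ tumours 1 to 5. In Ikzf1+/- tumours 1 to 5 it was -0.0064, 0.014, -0.0053, -0.025 and 0.0034. Tumours 1 and 4 were thus high, tumours 2 and 5 lower, and Ikzf1+/+ tumour 3 lay among the Ikzf1+/- tumours, so the genotypes overlapped. The group means were 0.16 ± 0.15 and -0.0037 ± 0.014 (SD, n = 5 each), a difference of -0.17 for Ikzf1+/- minus Ikzf1+/+. The SD over the body probes of a tumour ran from 0.18 to 0.39. Each tumour was measured on 1 array, so neighbours in the order of tumours have no replicate spread of their own to be set against. The highest values remained below the +0.58 of 3 copies in every cell. With the median over body probes in place of the mean, tumours 1 and 4 stood at 0.28 and 0.22.

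**Figure D1:**
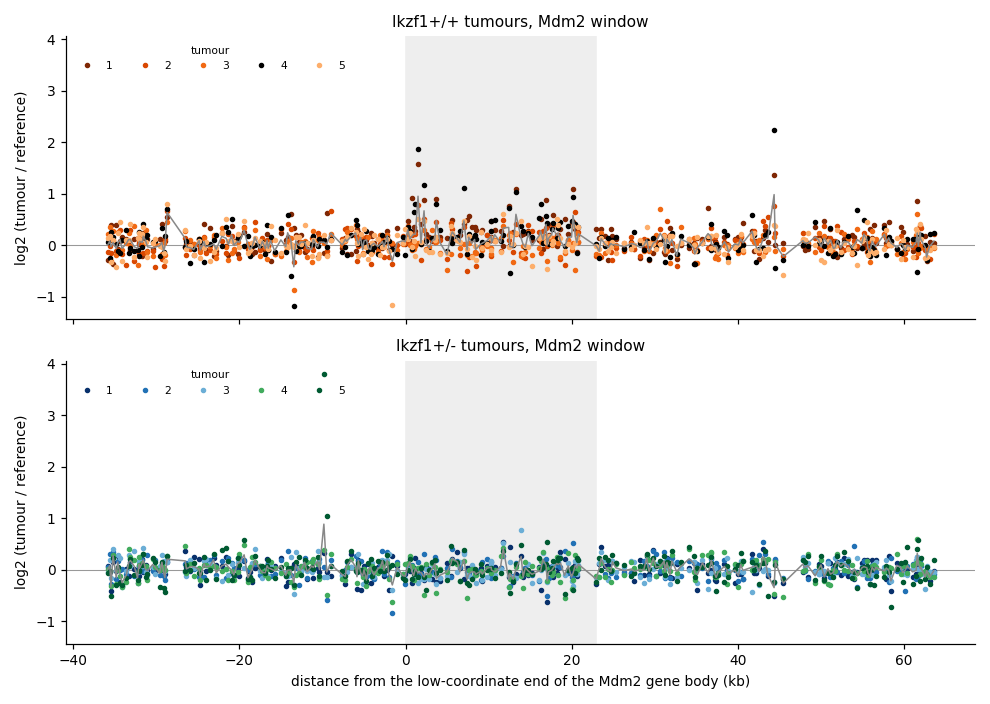
Log2 ratio of every probe in the Mdm2 window (vertical axis) against distance from the low-coordinate end of the gene body in kb, for Ikzf1+/+ (top) and Ikzf1+/- tumours (bottom); dots are single arrays, the grey line is the mean of the 5 arrays and the shaded band is the gene body. In Ikzf1+/+ tumours 1 and 4 the body averages 0.35 and 0.297 with single probes far above it, and the dot at 3.81 in the left flank is a single probe of Ikzf1+/- tumour 5.

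The flanks of Mdm2 did not share this level. Over both flanks the mean was 0.076, 0.031, 0.021, 0.038 and 0.024 in Ikzf1+/+ tumours 1 to 5, and it lay between -0.0010 and 0.049 in Ikzf1+/- tumours. Body minus flanks was therefore 0.27, 0.067, -0.025, 0.26 and 0.059 in Ikzf1+/+ tumours and -0.0054, -0.012, -0.028, -0.045 and -0.046 in Ikzf1+/- tumours. The genotypes overlapped here too, through Ikzf1+/+ tumour 3. Next to the body, the nearest 10 probes of the left flank averaged 0.084 and 0.014 in Ikzf1+/+ tumours 1 and 4, and the nearest 10 of the right flank 0.088 and 0.044. Over all 10 tumours body minus flanks was 0.050 ± 0.12 (SD, n = 10), and it was 0.025 without Ikzf1+/+ tumour 1 and 0.026 without tumour 4. Chromosome 10 as a whole had medians between -0.031 and -2.7e-05 on the 10 arrays.

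Within the body the rise was not limited to a single part. Divided into 3 parts with nearly equal probe numbers, the body gave 0.38, 0.34 and 0.32 in Ikzf1+/+ tumour 1 and 0.33, 0.23 and 0.33 in tumour 4. Ikzf1+/+ tumour 2 had 0.15, -0.018 and 0.16, so its middle part was at the level of the Ikzf1+/- tumours, which lay between -0.046 and 0.045 in the 3 parts. In tumours 1 and 4, 91.9% and 83.9% of the 62 body probes were above 0, against 43.5% to 53.2% in Ikzf1+/- tumours. Ikzf1+/+ tumours 2, 3 and 5 had 66.1%, 50% and 62.9%.

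**Figure D2:**
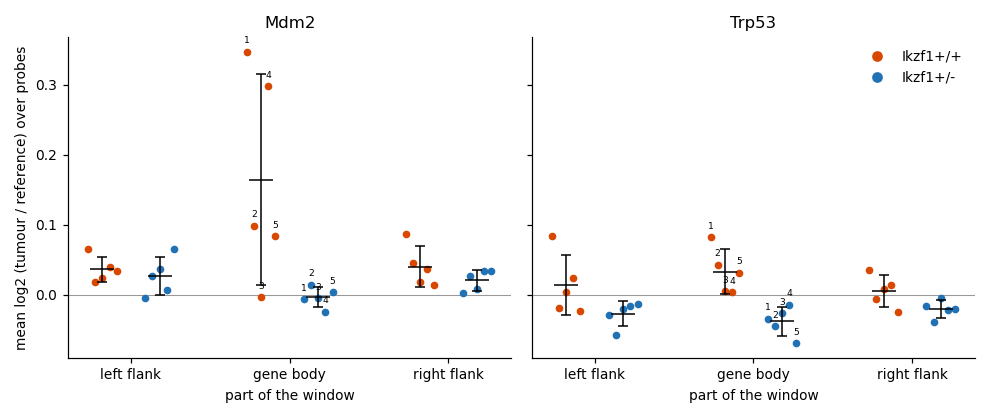
Mean log2 ratio over the probes of the left flank, gene body and right flank (horizontal axis) of Mdm2 and Trp53 in each tumour; dots are tumours, numbered at the gene body, and bars are the mean and SD of 5 tumours. The Mdm2 body of Ikzf1+/+ tumours 1 and 4 stands at 0.35 and 0.297, apart from all flanks, while the Trp53 body of every tumour lies between -0.069 and 0.082.

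Single probes rose far above that level. The probe at chr10:117127482-117127532, near the low-coordinate end of the body, read 1.58, 0.78, 0.034, 1.86 and 0.50 in Ikzf1+/+ tumours 1 to 5. The Ikzf1+/- tumours read -0.10, 0.15, -0.25, 0.025 and -0.14. Tumours 1 and 4 were again highest and tumour 3 lowest, inside the range of the Ikzf1+/- tumours. In tumour 1 its neighbours starting at 117127164 and 117127827 read 0.28 and 0.40, and in tumour 4 they read 0.79 and 0.014, so in tumour 4 the neighbour on the low-coordinate side was high as well. The probe at chr10:117128204-117128260 read 0.87, 0.52, 0.30, 1.18 and 0.47 in Ikzf1+/+ and -0.19, 0.32, -0.18, -0.50 and -0.14 in Ikzf1+/- tumours. The probe at chr10:117139274-117139328 read 1.09, 0.41, 0.23, 1.04 and 0.23 in Ikzf1+/+ and -0.087, 0.14, -0.15, 0.046 and 0.11 in Ikzf1+/- tumours, with no overlap.

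Of the 62 Mdm2 body probes, 6 had an Ikzf1+/+ mean at least 0.5 above the Ikzf1+/- mean and 0 had one at least 0.5 below it; over all autosomal probes 0.363% were at least 0.5 higher. Besides the 3 described, these were the probes starting at 117129684, 117138396 and 117146152, with differences of 0.64, 0.53 and 0.64. They were picked by this difference after the values were seen, so the share is read for nothing more. Averaged over the 6, tumours 1 to 5 stood at 1.05, 0.45, 0.14, 1.09 and 0.29 in Ikzf1+/+, and the Ikzf1+/- tumours between -0.23 and 0.17. Over the other 56 body probes the mean was still 0.27 and 0.21 in Ikzf1+/+ tumours 1 and 4. It was 0.061, -0.020 and 0.061 in tumours 2, 3 and 5, and between -0.0022 and 0.017 in Ikzf1+/- tumours. The 11 probes directly beside the 6 averaged 0.21 and 0.20 in tumours 1 and 4.

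For 3 Mdm2 body probes the lowest Ikzf1+/+ tumour lay above the highest Ikzf1+/- tumour, against 1.05% of all autosomal probes, a contrast the choice of the locus used. The number of body probes at or above 0.5 was 12, 3, 0, 12 and 3 in Ikzf1+/+ tumours 1 to 5, whereas the Ikzf1+/- tumours had 1, 1, 2, 0 and 1. Of the 194 flank probes, 6, 4, 2, 6 and 2 were that high in Ikzf1+/+ and 0, 1, 0, 1 and 4 in Ikzf1+/- tumours. The share of all autosomal probes at or above 0.5 on each array was not counted, so these numbers are read for nothing more. Other probes were high in both genotypes. The probe starting at 117137747 read -0.012, 0.50, 0.38, 0.20 and 0.60 in Ikzf1+/+ and 0.53, 0.27, 0.51, 0.42 and 0.36 in Ikzf1+/- tumours, where tumour 1, the highest over the body, was lowest. The probe starting at 117133007 read 0.41, 0.36, 0.020, 1.11 and 0.47 against -0.19, 0.34, 0.30, 0.17 and 0.38. The 3 lowest body probes over all arrays, starting at 117133384, 117130965 and 117138943, had means between -0.14 and -0.11.

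At the ends of the body, the probe starting at 117125946 averaged 0.066 ± 0.18 in the Ikzf1+/+ group and -0.12 ± 0.14 in the Ikzf1+/- group (SD, n = 5 each), and the next, starting at 117126240, 0.30 ± 0.14 and 0.061 ± 0.059. At the other end, the probe before the gap, starting at 117146793, averaged 0.22 ± 0.14 and 0.11 ± 0.084. The last probe, starting at 117148937 beyond the gap, averaged -0.013 ± 0.21 and -0.18 ± 0.071. The outermost probes were thus close to or below 0 in the mean of either genotype, while the probes just inside them were above 0 in Ikzf1+/+ tumours.

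A single probe of the right flank was higher than any in the body in tumour 4. At chr10:117170371-117170415 the Ikzf1+/+ tumours read 1.37, 0.76, 0.15, 2.24 and 0.39 and the Ikzf1+/- tumours -0.51, -0.25, -0.26, -0.47 and -0.25. The Ikzf1+/+ tumours stood in the same order as at the body probe starting at 117127482, with tumour 4 highest and tumour 3 lowest, and here the genotypes did not overlap. In the left flank, the probe at chr10:117116139-117116198 read 3.81 in Ikzf1+/- tumour 5 and between -0.16 and 0.39 in the other 9 tumours. In that array its Cy5 signal was 1.03 times the array median and its Cy3 signal 0.074 times, against 0.81 to 1.07 times on the other arrays. Without this probe the left flank of Ikzf1+/- tumour 5 averaged 0.026 in place of 0.065.

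Trp53 showed no such level. Its body mean was 0.082, 0.043, 0.0045, 0.0030 and 0.031 in Ikzf1+/+ tumours 1 to 5. The Ikzf1+/- tumours, in the same order, had -0.035, -0.045, -0.026, -0.014 and -0.069. All Ikzf1+/+ tumours were above 0 and all Ikzf1+/- tumours below it, so the groups did not overlap, but no tumour was as far from 0 as 0.1. The group means were 0.033 ± 0.032 and -0.038 ± 0.021 (SD, n = 5 each), a difference of -0.070. Medians over the body probes overlapped, from -0.058 to 0.087 in Ikzf1+/+ and from -0.058 to 0.0097 in Ikzf1+/- tumours. With the normexp background correction, another way to subtract spot background, the order turned. Ikzf1+/+ tumours 1 to 5 then read -0.058, -0.051, 0.098, -0.095 and 0.15, the Ikzf1+/- tumours lay between 0.057 and 0.13, and the difference was +0.092. The direction of the Trp53 difference thus depends on the processing. The normexp values also lack the dye normalisation of the scanner software, and which step turned the order was not tested.

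**Figure D3:**
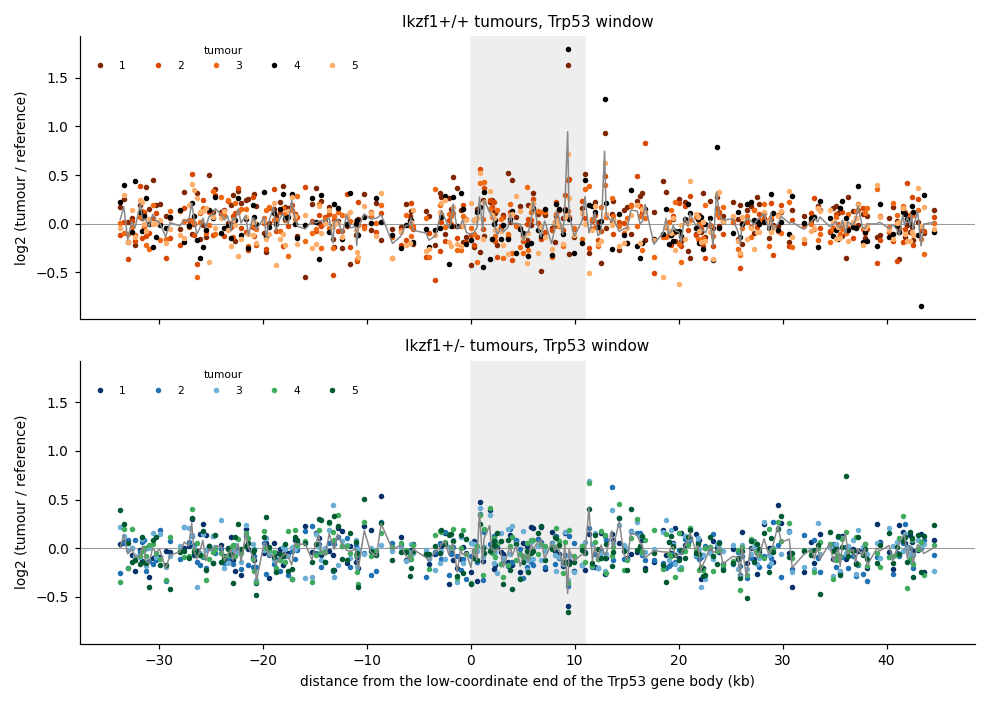
Log2 ratio of every probe in the Trp53 window (vertical axis) against distance from the low-coordinate end of the gene body in kb, for Ikzf1+/+ (top) and Ikzf1+/- tumours (bottom); dots are single arrays, the grey line is the mean of the 5 arrays and the shaded band is the gene body. The high dots are the body probe reading 1.63 and 1.79 in Ikzf1+/+ tumours 1 and 4 and a right flank probe reading 0.93 and 1.28 in them.

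The Trp53 flanks followed the body in some tumours and not in others. Over both flanks the mean was 0.059, -0.012, 0.0056, 0.018 and -0.024 in Ikzf1+/+ tumours and -0.022, -0.049, -0.012, -0.019 and -0.017 in Ikzf1+/- tumours. Body minus flanks was 0.023, 0.055, -0.0012, -0.015 and 0.055 in Ikzf1+/+ and -0.012, 0.0040, -0.014, 0.0046 and -0.052 in Ikzf1+/- tumours, and here the genotypes overlapped. Ikzf1+/+ tumours 2 and 5 had a body above 0 and flanks below it, and Ikzf1+/- tumour 5, lowest in the body, was not lowest in the flanks. The group means of body minus flanks were 0.023 ± 0.032 and -0.014 ± 0.023 (SD, n = 5 each), and over all 10 tumours 0.0046 ± 0.033 (SD, n = 10). No body or flank mean of Trp53 reached -0.1 in any tumour, where 1 copy against 2 in every cell would give -1. Chromosome 11 as a whole had medians between -0.012 and 0.038.

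A single probe carried much of the genotype difference of Trp53. At chr11:69403311-69403357, in the high-coordinate part of the body, the Ikzf1+/+ tumours read 1.63, 0.45, 0.13, 1.79 and 0.72. The Ikzf1+/- tumours read -0.60, -0.39, -0.32, -0.36 and -0.65, so every tumour of a genotype lay on its own side of 0. The neighbour starting at 69403033 read 0.15, 0.30, 0.13, 0.14 and 0.067 in Ikzf1+/+ tumours, and that starting at 69403430 read -0.31, 0.46, 0.067, 0.052 and 0.27. In tumours 1 and 4 both neighbours lay far below the probe, whereas in tumour 2 one of them was level with it. The mean of both neighbours was 0.13 ± 0.17 in the Ikzf1+/+ group and 0.011 ± 0.10 in the Ikzf1+/- group (SD, n = 5 each). Over the other 36 body probes the genotype means were 0.0072 ± 0.034 and -0.026 ± 0.019 (SD, n = 5 each), a difference of 0.033 for Ikzf1+/+ minus Ikzf1+/-, and tumour 4 fell to -0.047. In the 3 parts of the body the difference was 0.011, 0.041 and 0.15, the last being the part with this probe.

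This was the only one of 37 Trp53 body probes with genotype means at least 0.5 apart, against the same 0.363% of autosomal probes for the higher direction. It was also the only body probe where all Ikzf1+/+ tumours lay above all Ikzf1+/- tumours, against the same 1.05%. At the body probe starting at 69401765 all Ikzf1+/+ tumours lay below them, between -0.34 and -0.043 against -0.011 to 0.16. The share of autosomal probes separated in this lower direction was not counted. Of the 183 flank probes, 5 had all Ikzf1+/+ tumours above all Ikzf1+/- tumours and 0 had them below. In the right flank, the probe at chr11:69406856-69406905 read 0.93, 0.49, 0.40, 1.28 and 0.63 in Ikzf1+/+ and -0.26, 0.13, -0.23, 0.14 and -0.10 in Ikzf1+/- tumours, without overlap. The probe starting at 69405343, between them, went the other way, with means of -0.096 ± 0.37 and 0.43 ± 0.25 (SD, n = 5 each) and overlapping tumours. Its Cy5 signal was only 0.19 to 0.45 times the array median.

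Other named Trp53 probes varied less. The 3 highest over all arrays started at 69394825, 69403311 and 69395800, with means over 10 arrays of 0.32, 0.24 and 0.175. At the first and the last of these the Ikzf1+/- means of 0.365 and 0.23 lay above the Ikzf1+/+ means of 0.275 and 0.12. The 3 lowest started at 69394002, 69402851 and 69397121, with means between -0.15 and -0.14. At the body's ends, the probe starting at 69394259 averaged -0.096 ± 0.13 in the Ikzf1+/+ group and -0.0075 ± 0.068 in the Ikzf1+/- group (SD, n = 5 each), that starting at 69404685 0.029 ± 0.19 and -0.060 ± 0.099, and the last, starting at 69404981, 0.28 ± 0.23 and -0.076 ± 0.11.

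The channels were looked at apart for the probes with Ikzf1+/+ higher by at least 0.5. At the Trp53 probe 69403311 the Cy5 signal was 6.39, 3.07, 2.11, 7.35 and 3.99 times the array median in Ikzf1+/+ tumours 1 to 5, and 1.90 to 2.52 times in Ikzf1+/- tumours. The Cy3 signal there was lower on Ikzf1+/+ arrays, at 2.19 ± 0.19 against 3.12 ± 0.16 times (SD, n = 5 each), so both channels contributed. At the Mdm2 probe 117127482 Cy5 was 4.37, 2.41, 1.70, 5.50 and 2.36 times in Ikzf1+/+ and 1.26 to 1.57 times in Ikzf1+/- tumours. Cy3 was 1.57 ± 0.13 and 1.48 ± 0.064 times there. At the flank probe 117170371 Cy5 was 8.36, 5.66, 3.77, 14.2 and 5.06 times in Ikzf1+/+ and 2.84 to 3.53 times in Ikzf1+/- tumours, with Cy3 at 3.43 ± 0.32 and 3.91 ± 0.27 times. At these Mdm2 probes the spread among Ikzf1+/+ tumours lay in the tumour channel.

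**Figure D4:**
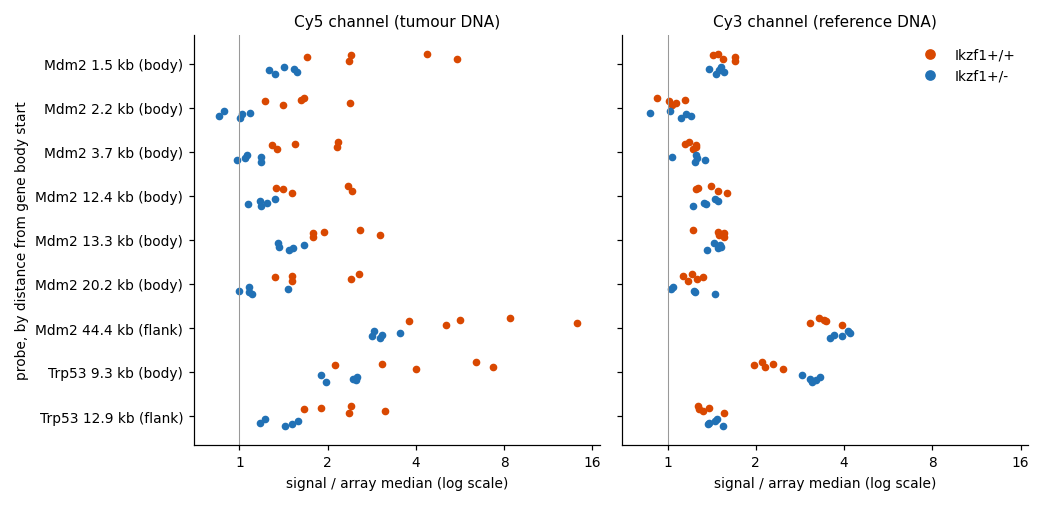
Signal of the 9 probes whose Ikzf1+/+ mean log2 ratio was at least 0.5 above the Ikzf1+/- mean, as a multiple of the array's median signal (log axis), in the Cy5 channel (left) and the Cy3 channel (right); dots are single arrays and rows are probes by distance in kb from the body's low-coordinate end. Cy5 spreads up to 14.2 times the median among Ikzf1+/+ arrays, while Cy3 stays between 0.87 and 4.19 times on all arrays.

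At the 9 probes of both windows picked for a difference of at least 0.5, tumours 1 and 4 were the highest Ikzf1+/+ tumours at 9, and tumour 3 was the lowest at 8, the exception being the Mdm2 probe starting at 117138396. A probe with high values in tumours 1 and 4 reaches that difference more easily, so the way the probes were picked largely sets this order. The ratios of single body probes in tumours 1 and 4 had Pearson's r of 0.69 over the 62 Mdm2 probes and 0.66 over the 37 Trp53 probes. The probes with a genotype difference of at least 0.5 set much of these values: without them r was 0.29 over 56 Mdm2 probes and 0.12 over 36 Trp53 probes. Between tumours of the same genotype r had a median of 0.36 in Ikzf1+/+ and 0.19 in Ikzf1+/- tumours for Mdm2, and 0.35 and 0.46 for Trp53. Between genotypes the medians were 0.15 and 0.038, with the lowest value of -0.50 at Trp53 between tumour 1 of each genotype. The points are the same probes with the same sequence on each array, so these r are descriptions only.

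The signal of the arrays differed between the genotypes. Ikzf1+/+ tumours 1 to 5 had median background-subtracted Cy5 signals of 88.4, 93.0, 159, 107 and 153, all below the 199 of the lowest Ikzf1+/- array. Autosomal probes at or above +1 numbered 875, 252, 188, 682 and 357 on these Ikzf1+/+ arrays, most in tumours 1 and 4, and 114, 146, 79, 166 and 537 on Ikzf1+/- arrays. Those at or below -1 numbered 866, 737, 315, 627 and 422 on the same Ikzf1+/+ arrays. On Ikzf1+/- arrays they numbered 76, 162, 58, 118 and 252. Ikzf1+/+ tumour 2, with a Cy5 signal close to that of tumour 1, had a Mdm2 mean of 0.098. Since the Cy5 signals of the genotypes did not overlap, signal strength and genotype cannot be told apart here. The part of signal strength in the Mdm2 and Trp53 values was not tested.

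**Figure D5:**
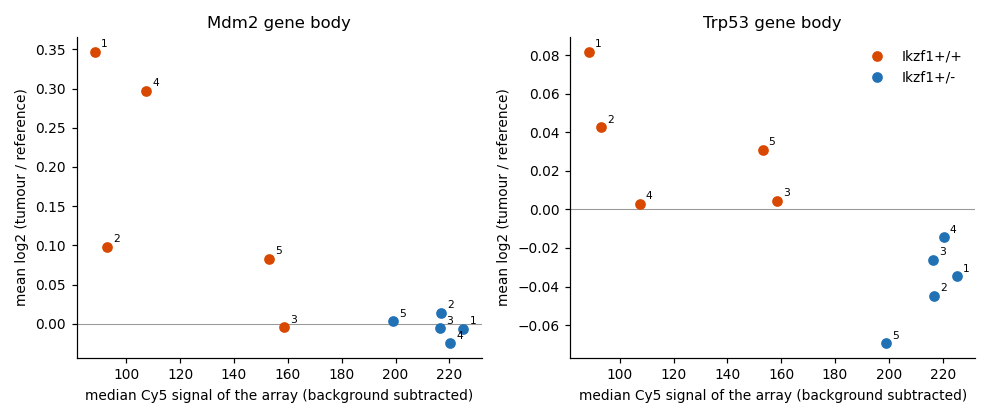
Mean log2 ratio of the Mdm2 (left) and Trp53 (right) gene body against the array's median background-subtracted Cy5 signal in scanner units; dots are tumours, numbered by replicate. All Ikzf1+/+ arrays lie between 88.4 and 159 and all Ikzf1+/- arrays between 199 and 225, and within Ikzf1+/+ the Mdm2 mean is 0.35 and 0.098 at the similar signals of tumours 1 and 2.

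Slides were compared next, since arrays shared them. Ikzf1+/+ tumours 1 and 2 were on slide 1 and tumours 3 and 4 on slide 2. Slides 4 and 5 held only Ikzf1+/- tumours, so on these 4 slides genotype and slide cannot be told apart. The highest Mdm2 values came from slides 1 and 2, each of which also held a lower tumour. The part of the slide in the Mdm2 values was not tested. Slide 3 alone held both genotypes. On it Ikzf1+/- tumour 1 minus Ikzf1+/+ tumour 5 was -0.089 for the Mdm2 body and -0.066 for the Trp53 body, from 1 array each. With the normexp correction the Mdm2 body read 0.28, 0.092, 0.057, 0.27 and 0.17 in Ikzf1+/+ tumours 1 to 5 and between 0.027 and 0.090 in Ikzf1+/- tumours, a difference of -0.12.

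The bodies were set against the rest of the genome in runs of equal probe number. Only Ikzf1+/+ tumour 1 had a gene body past 0.3 in either direction, that of Mdm2; in it 9 of 6161 autosomal runs of 62 probes, or 0.146%, had a mean of at least 0.3. Ikzf1+/+ tumour 4 fell just short. The Mdm2 mean lay above 99.9%, 97.0%, 53.9%, 99.97% and 88.2% of these runs in Ikzf1+/+ tumours 1 to 5 and above 23.6% to 64.5% of them in Ikzf1+/- tumours. The Trp53 mean lay above 54.9% to 83.3% of 10328 runs of 37 probes in Ikzf1+/+ tumours and above 7.48% to 35.8% in Ikzf1+/- tumours. Runs differ in length along the chromosome, since the array covers some places more densely than others.

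As a background for any locus, all runs were fitted with limma. Between genotypes, 292 of 10328 runs of 37 probes passed a Benjamini-Hochberg adjusted p of 0.05, or 2.83%, with 219 higher and 73 lower in Ikzf1+/- tumours. Of 6161 runs of 62 probes 475 passed, or 7.71%, with 364 higher and 111 lower. Left out in turn, single arrays changed these counts: to 0 without Ikzf1+/- tumour 1 or tumour 3, 1 without Ikzf1+/- tumour 4, 7 without Ikzf1+/+ tumour 5, 11 without Ikzf1+/- tumour 2, 70 without Ikzf1+/- tumour 5, 145 and 136 without Ikzf1+/+ tumours 1 and 2 and 509 without Ikzf1+/+ tumour 4 for 37 probes. For 62 probes they were 75, 210, 149, 178 and 294 without Ikzf1+/- tumours 1 to 5, and 290, 778 and 203 without Ikzf1+/+ tumours 1, 4 and 5. At an unadjusted p under 0.05, 2101 and 2082 runs of 37 probes passed without Ikzf1+/- tumour 1 and tumour 3. Against the reference DNA, 37.1% of runs of 37 probes and 43.9% of runs of 62 passed in the limma fit over all tumours. The median absolute ratio over all runs, passing or not, was 0.027 and 0.026. The ratios of the passing runs alone were not summarised. No p is given for Trp53 or Mdm2, which were chosen from these contrasts.

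The 5 runs on other chromosomes most like the Mdm2 body over the 10 arrays had Pearson's r between 0.95 and 0.98. The first, chr4:44582979-44604142, averaged 0.12 ± 0.089 in the Ikzf1+/+ group and 0.023 ± 0.022 in the Ikzf1+/- group (SD, n = 5 each). The run chr8:125415429-125430833 (r = 0.967) reached 0.29 ± 0.15 against 0.043 ± 0.036. The run chr11:69468639-69487631 (r = 0.964), which lies beyond the right end of the Trp53 window, averaged 0.13 ± 0.092 against -0.011 ± 0.011. The others were chr6:119774359-120166699 and chr9:96499468-96515744, with Ikzf1+/+ means of 0.069 and 0.054. Except for the chromosome 6 run of 392 kb, these were short, from 15.4 to 21.2 kb for 62 probes.

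For Trp53 the 5 most alike runs of 37 probes lay on chromosomes 9, 1, 6, 1 and 9, with r between 0.95 and 0.97. The first, chr9:44960082-45173566, averaged 0.097 ± 0.049 in the Ikzf1+/+ group and 0.020 ± 0.021 in the Ikzf1+/- group (SD, n = 5 each). The others started at 154500820, 145345840, 155155008 and 45179644, with Ikzf1+/+ means from 0.063 to 0.13 and Ikzf1+/- means from -0.011 to 0.020. All were long, from 213 to 391 kb, where the Trp53 body covers 11 kb. The points share arrays and the same reference channel design, and the runs were picked as the highest of 9684 for Trp53 and 5791 for Mdm2, so r is a measure of likeness alone.

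A list of 40 other genes of the pathway, among them the kinase genes Atm and Chek2, the p53 inhibitor Mdm4 and the arrest target Cdkn1a, received no values, since the array files name no genes and no gene positions in mm9 were used here. In the RefSeq gene table Apaf1, Perp and Sesn1 share chromosome 10 with Mdm2, and Ccng1 and Ppm1d share chromosome 11 with Trp53. In that table Efnb3 and Wrap53 lie on the low-coordinate side of Trp53 and Atp1b2 on the other, and Cpm and Slc35e3 lie on either side of Mdm2.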

How the data were processed

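Per the labels, DNA was extracted with phenol and chloroform and labelled with a ULS kit. The deposited scanner files gave Cy5 and Cy3 intensity as processed signals, background-subtracted and dye-normalised by the scanner software. Per the file headers this was Feature Extraction 10.7.3.1 with a lowess CGH protocol on mm9, whereas version 10.5.1.1 of this Agilent software stands in the submitters' processing notes. The deposited series matrix held log2 ratios of Cy5 over Cy3: regressed on the scanner's deposited log10 ratio converted to log2, the slope was 1.00 on every array and the column medians lay between -0.019 and -0.00060, so columns were not centred.

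From these, log2 of processed Cy5 over Cy3 was computed, non-uniform and population outlier spots were left out, spots of a probe were averaged and arrays were centred on the autosomal median. Gene bodies and flanks are means over probes. Named probes were the 3 highest and 3 lowest of each body by mean over arrays, the 2 at each end, and, chosen after values were seen, those with genotype means 0.5 apart, the neighbours of the highest probe in each body and the body probe 69401765. Likeness was taken over runs on other chromosomes. Arrays past 0.3 in a body were counted. Runs were non-overlapping sets of 37 or 62 consecutive autosomal probes, tested with limma 3.58.1 (R 4.3.3, lmFit and eBayes) after a check on simulated data. The simulated runs were independent of each other, with the same SD in both genotypes. The check thus does not cover unequal spread between genotypes or effects shared by the runs of an array. They stand in for genes, since the files name none. The members and lists were chosen with earlier results of these data known. The normexp alternative used median spot and background signals with an offset of 50. Unlike the processed signals, it had no dye normalisation beyond the centring of each array. Python 3.11.15, numpy 2.4.6, pandas 2.3.3 and matplotlib 3.10.9 were used. The number of arrays limits the precision, and as no label states separate animals, p-values cover the spread among these arrays alone, which may be technical.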

Additional observations from a re-analysis of the deposited data

Results flagged for a closer look

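The Trp53 body separated the genotypes by sign, with every Ikzf1+/+ tumour above 0 and every Ikzf1+/- tumour below, and a difference of -0.070 for Ikzf1+/- minus Ikzf1+/+; the difference was not tested. With normexp correction it was +0.092, medians over probes overlapped between the genotypes, and without the probe starting at 69403311 Ikzf1+/+ tumour 4 stood at -0.047. At the Trp53 body probe starting at 69403311 the tumours split by sign in the same way, with a difference of -1.41, also not tested. At the Mdm2 right flank probe starting at 117170371 the untested difference was -1.33, again with every tumour of a genotype on its own side of 0.

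A sample stood far from the other 4 of its genotype at 2 probes. Ikzf1+/- tumour 5 read 3.81 at the Mdm2 left flank probe starting at 117116139, and Ikzf1+/+ tumour 4 read -0.36 at the Trp53 body probe starting at 69395800. The rule was applied in both genotypes to most of the named probes and to each body and flank mean. By chance about 1 in 20 groups holds such a sample, so these 2 are read for nothing more.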

How the results depend on the processing

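Mdm2 differences between genotypes kept their direction and stayed within the tumours' spread of the reported value in all 19 alternatives (median over probes, normexp correction, series matrix values, centring on the chromosome, outlier spots kept, bright probes only, a body shortened by 1 kb at each end, flanks of 500 kb, slide 3 alone, each tumour left out), between -0.21 and -0.089 for the body and between -0.21 and -0.065 for body minus flanks; the smallest values, -0.089 and -0.065, came from slide 3 alone. Trp53 kept its direction in 18 of 19, between -0.078 and -0.051, and turned to +0.092 after normexp correction. The cause of this turn was not tested. Some of the 19 alternatives could not move a value. Flank length does not enter the body differences, and centring on the chromosome cancels in body minus flanks. Keeping outlier spots left body minus flanks the same for both genes. Bright probes only left the Trp53 body the same, since all 37 of its probes pass. Its body minus flanks moved to -0.067 on slide 3 alone and otherwise lay between -0.052 and -0.0098. Over all tumours that quantity changed sign in 4 of 19 alternatives, always within the spread. Runs of 37 probes differing between genotypes in limma numbered 8 with medians, 581 after normexp correction and 460 with the slide as a random block, and 0 to 509 as each tumour was left out; runs of 62 numbered 55 with medians and 75 to 778 with a tumour left out. With the replicate number as a block both counts were 0 in limma (2479 and 1752 at an unadjusted p under 0.05). The labels do not say what tumours of equal number share beyond that number. Deviations of such tumours from the group means correlated between -0.017 and 0.31 over runs of 37. Over runs of 62 these correlations lay between -0.024 and 0.36, and 3 of 5 Ikzf1+/+ tumours correlated best with their own number. Runs differing from the reference DNA stayed within 1.5 times the reported count. Not run, since the files name no genes and give no probe sequences: GC correction, gene-level fits with their probe minimums, and the pathway list. Probe 117116139 rests on a Cy3 signal of 0.074 times the array median. With 5 arrays a genotype, and tumour cell share unknown, changes present in few cells were not detectable.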
